A study of Mus musculus with 8 samples.

Results

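The genes described here are 9 effectors and targets of the Hippo pathway, taken by name: the coactivators Yap1 and Wwtr1 (which encodes TAZ), the DNA-binding partners Tead1, Tead3 and Tead4, and the target genes Ctgf, Cyr61, Ankrd1 and Amotl2. They were looked up by gene symbol in a table of 25485 genes with normalised values, where 8 of the 9 were found, and joined by Ensembl identifier to the table of raw counts. Ankrd1 was in the count table only. Of the 9, 7 had enough reads to be tested among 16445 genes, and Tead4 and Ankrd1 did not.

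The RNA came from Lgr5-GFP+ intestinal stem cells sorted from 8 mice. The labels give 4 of these mice as β-cat GOF; Mll1-/- and the other 4 as β-cat GOF; Mll1+/-. Both genotypes carried Lgr5-EGFP-IRES-CreERT2, which drives GFP and a tamoxifen-inducible Cre recombinase from the Lgr5 locus, and the β-cat GOF allele, from which Cre produces stabilised β-catenin. The Mll1 allele was conditional (flox), so both the activation of β-catenin and the loss of 1 or both Mll1 copies depended on recombination by Cre in Lgr5+ cells. Mice aged 4 to 6 weeks were injected with tamoxifen at 50 mg/kg on 3 days in a row and crypts were taken 10 days after induction. Each library held a small pool of cells from 1 mouse, sorted after staining for EpCAM, an epithelial surface protein, and CD45, a leukocyte protein, and its cDNA was amplified by PCR in a Smart-seq2 type protocol. No library without β-cat GOF, and none with 2 intact Mll1 copies, was part of the comparison. The comparison asks how the transcriptome of stem cells with activated β-catenin differs when the histone methyltransferase Mll1 (gene Kmt2a) is removed from both alleles rather than 1.

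In the Hippo pathway a kinase cascade of Mst and Lats kinases phosphorylates YAP and TAZ, which keeps them in the cytoplasm or marks them for degradation. When the cascade is inactive, YAP and TAZ enter the nucleus, bind TEAD factors and activate genes of matrix signalling, the cytoskeleton and growth, among them Ctgf and Cyr61. Much of this control acts on the proteins and their location, which RNA levels do not record. In the intestine YAP is best known for its part in regeneration after injury and in tumours with activated Wnt signalling.

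The libraries held 14468751 to 16847793 reads counted on genes. The libraries were numbered in 2 runs of consecutive library numbers, each with 2 mice of each genotype, and within-run differences are given below as a check. J_7135, labelled Mll1-/-, stood apart: its Spearman correlation with the most similar library was 0.909, against at least 0.947 for the others. Kmt2a, the targeted gene (chr9:44803355-44881296), stood at 59.5, 62.6, 78.5 and 53.5 CPM (reads of a gene scaled to the size of its library) in the libraries labelled Mll1-/- and at 50.2, 64.9, 51.2 and 48.9 CPM in those labelled Mll1+/-. Its level did not separate the labels, with a log2 fold change of 0.24 (SE 0.17, adjusted p = 0.710), which was 0.12 without J_7135. The counts cover the whole gene and give no view of single exons, so a deletion of part of it was not checked by this level. Genotypes are therefore named by their labels throughout. Markers of the labelled cell type were present, with Lgr5 between 215 and 308 CPM, Epcam between 1255 and 1697 CPM and Ptprc, which encodes CD45, at no more than 0.957 CPM.

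Sequence upstream of the start site was available from RefSeq (GRCm38.p6) for 6 of the 9 genes, and it is shown because TEAD factors bind the letters GGAATG or, on the other strand, CATTCC. Ctgf, Tead1 and Tead4 had no entry. Cyr61 is shown in full, as the member with the highest level and the only one whose genotypes did not overlap, over the 250 bases before its start, chr3:145649986-145650235 on the minus strand. It reads 5′ to 3′ in the direction of the gene, as do all sequences here, and the motif is in capitals.
Cyr61: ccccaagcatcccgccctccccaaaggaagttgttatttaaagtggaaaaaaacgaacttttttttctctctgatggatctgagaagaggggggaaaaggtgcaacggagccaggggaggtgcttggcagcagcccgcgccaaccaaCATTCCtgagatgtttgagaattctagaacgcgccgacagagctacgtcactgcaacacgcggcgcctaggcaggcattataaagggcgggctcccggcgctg
The other genes are shown only by the 30 bases around a motif, again with the motif in capitals, so that the flanks can be compared. Ankrd1, a target with almost no reads here, had matches 210 and 123 bases before its start (minus strand). Amotl2 had 1 match 65 bases before its start (plus strand), Yap1 had 1 match 141 bases before it and Wwtr1 had 1 match 136 bases before the first of its 2 start sites (both minus strand).
Ankrd1, far match (chr19:36120037-36120066): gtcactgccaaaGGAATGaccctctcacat
Ankrd1, near match (chr19:36119950-36119979): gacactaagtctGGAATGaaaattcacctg
Amotl2 (chr9:102717727-102717756): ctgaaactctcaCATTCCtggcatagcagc
Yap1 (chr9:8004720-8004749): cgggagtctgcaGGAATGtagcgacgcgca
Wwtr1 (chr3:57576029-57576058): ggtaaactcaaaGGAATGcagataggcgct

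In GENCODE M21, where Ankrd1 reaches farther upstream (chr19:36111961-36120099) than in the annotation of the count table, both Ankrd1 matches lie in an exon of 1 of its transcripts and the Amotl2 match in an exon of 2. Those of Cyr61, Yap1 and Wwtr1 lie in no exon. Tead3 had matches at 2 of its 3 start sites. The match at the first start site lies in no exon. At the second start site 2 copies lay 3 bases apart, chr17:28350706-28350735 on the minus strand, both in an exon of 3 Tead3 transcripts.
Tead3: tccggccgggctCATTCCgtaCATTCCggc
All 6 genes thus held the motif in at least 1 window of 300 bases (250 before and 50 after the start), and 8 of their 9 windows did. Over all RefSeq entries 14.7% of 32851 windows and 16.6% of 27025 genes held it. The letters of an AP-1 site (TGACTCA or TGAGTCA) and of a cyclic AMP response element (TGACGTCA), and a CArG box, were searched on both strands and matched none of the 9 windows, while 5.20%, 1.79% and 1.63% of all windows held them, so no match overlapped a TEAD motif. A match is a run of letters and says nothing of whether a factor was bound in these cells.

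Across the members no gene passed a false discovery rate (FDR) of 10% by edgeR's quasi-likelihood test. DESeq2 and limma-voom also called 0 of them. Over all genes tested 0.0851% passed with edgeR, which is 14 genes. At an unadjusted p under 0.05, 1 of the 7 members tested was called, where 9.15% of all genes were. The genotypes did not overlap for 1 of the 7, higher in the libraries labelled Mll1-/-, against 6.28% of all genes, of which 3.34% were higher and 2.94% lower. That gene was Cyr61 in both counts, and neither count can be read as a result about the members as a group. The median log2 fold change was 0.06 over the 7 and 0.01 over all genes, with 4 members above 0 and 3 below. In bulk RNA a difference in the number of cells that express a gene and a difference in RNA per cell cannot be told apart.

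Yap1 (chr9:7931999-8004596, minus strand), the coactivator on which the kinase cascade converges, stood at 49.0, 39.5, 19.6 and 28.0 CPM in the libraries labelled Mll1-/- of mice J_7075, J_7096, J_7135 and J_7136. It stood at 44.6, 33.5, 27.3 and 35.8 CPM in the libraries labelled Mll1+/- of mice J_7079, J_7100, J_7134 and J_7139, and all later values are in these orders. Both the highest and the lowest library were labelled Mll1-/-, and the range of the other genotype lay inside theirs. The means were 34.0 ± 12.9 and 35.3 ± 7.17 CPM (SD, n = 4 each), and the log2 fold change of labelled Mll1-/- over labelled Mll1+/- was -0.05 (SE 0.29, adjusted p = 0.974). Within the first run the difference of mean log2 CPM was 0.19 and within the second -0.41. Run was the more visible split, with 33.5 to 49.0 CPM in the first run and 19.6 to 35.8 CPM in the second.

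Wwtr1 (chr3:57455649-57575910, minus strand) encodes TAZ, the paralogue of YAP. It stood at 20.3, 13.8, 7.41 and 2.43 CPM in the libraries labelled Mll1-/- and at 15.0, 22.6, 17.1 and 27.4 CPM in those labelled Mll1+/-. The 3 lowest libraries were labelled Mll1-/-, but J_7075 lay inside the range of the other genotype. This gave means of 10.98 ± 7.76 and 20.5 ± 5.58 CPM and a log2 fold change of -0.90 (SE 0.53, unadjusted p = 0.123, adjusted p = 0.655). The largest and the smallest library differed 11.3-fold, the widest span among the members with at least 10 counts in every library. The difference lay in the second run, at -2.31 on the log2 scale against -0.14 in the first, and without J_7136 the log2 fold change was -0.57. Without J_7075 it was -1.38 and the genotypes no longer overlapped. With fewer libraries such a separation is easier to reach, and its share over all genes was not computed.

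Tead1 (chr7:112679318-112906807, plus strand) was the TEAD factor with the highest level per gene length among those measured. It stood at 42.4, 51.2, 30.3 and 38.2 CPM in the libraries labelled Mll1-/- and at 40.7, 49.9, 28.2 and 36.0 CPM in those labelled Mll1+/-. The genotypes overlapped almost entirely, whereas the runs did not overlap, at 40.7 to 51.2 CPM in the first and 28.2 to 38.2 CPM in the second. The log2 fold change was 0.07 (SE 0.22, adjusted p = 0.956), with 0.05 and 0.09 within the runs.

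Tead3 (chr17:28331671-28350805, minus strand) was low, at 2.66, 4.81, 4.38 and 5.85 CPM in the libraries labelled Mll1-/- and 2.87, 7.87, 4.49 and 1.74 CPM in those labelled Mll1+/-. Highest and lowest were both labelled Mll1+/-, and the log2 fold change was 0.06 (SE 0.49, adjusted p = 0.982). Tead4 (chr6:128224288-128300823, minus strand) was near the limit of detection, with 7, 13, 0 and 15 counts in the libraries labelled Mll1-/- and 2, 9, 7 and 3 counts in those labelled Mll1+/-. The 0 of J_7135 allows up to 0.162 CPM, counting error only, and the gene was left untested. Tead2, the remaining TEAD gene and not among the 9, lay between 5.10 and 13.2 CPM with a log2 fold change of 0.30 (SE 0.30, adjusted p = 0.817). Per gene length the TEAD genes stood at 4.72 TPM for Tead1, 3.27 for Tead2, 1.56 for Tead3 and 0.198 for Tead4, where TPM are reads per base of the gene scaled to the library.

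Cyr61 (chr3:145646976-145649981, minus strand; CCN1 in current naming) encodes a secreted matricellular protein and is among the most used readouts of YAP activity. It stood at 105, 81.5, 115 and 109 CPM in the libraries labelled Mll1-/- and at 79.0, 44.5, 69.1 and 77.3 CPM in those labelled Mll1+/-. Every library labelled Mll1-/- lay above every library labelled Mll1+/-, though J_7096 exceeded J_7079 by little. The means were 103 ± 14.7 and 67.5 ± 15.9 CPM, a 1.52-fold difference (log2 fold change 0.61, SE 0.20). The unadjusted p was 0.0132 and the adjusted p 0.429, so the gene did not pass the FDR threshold. The exact two-sided permutation test gave p = 0.0286, the smallest that 4 against 4 allows. The difference was alike in both runs, at 0.64 in the first and 0.62 in the second on the log2 scale. It stayed between 0.45 and 0.70 in all 16 alternative fits, with adjusted p between 0.135 and 0.635.

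Ctgf (chr10:24595442-24598683, plus strand), the gene of connective tissue growth factor and the closest relative of Cyr61 among the members, showed no such separation. Its counts were 1, 4, 73 and 13 in the libraries labelled Mll1-/- and 65, 5, 26 and 12 in those labelled Mll1+/-. That is 0.06, 0.23, 3.95 and 0.85 CPM against 3.89, 0.35, 2.09 and 0.77 CPM. J_7135 and J_7079, 1 of each genotype, held most of the reads, and each genotype also had a library at 5 counts or fewer. The log2 fold change was -0.47 (SE 1.12, adjusted p = 0.933), it turned to 0.26 without J_7079 and was -2.22 without J_7135, and it was -2.43 within the first run and 0.50 within the second. Of the exonic bases of Ctgf, 23.2% are shared with Gm15270 on the opposite strand, and the reads were counted without strand. Gm15270 itself had at most 16 counts in a library. What size of change these counts could show was not tested.

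Amotl2 (chr9:102716672-102733418, plus strand) encodes an angiomotin that binds YAP and is itself a target. It stood at 14.2, 11.6, 2.49 and 20.1 CPM in the libraries labelled Mll1-/- and at 11.8, 5.62, 8.50 and 9.36 CPM in those labelled Mll1+/-. The highest and the lowest library, J_7136 and J_7135, were both labelled Mll1-/-. Its log2 fold change was 0.45 (SE 0.53, adjusted p = 0.846), moved to 0.10 without J_7136, to 0.79 without J_7135 and to 0.11 with limma-voom, and differed in sign between the runs, at 0.65 and -0.32. Ankrd1 (chr19:36111965-36119844, minus strand), a target best known from heart and skeletal muscle, had 8 counts in J_7139 and 0 in the other 7 libraries. A count of 0 allows up to 0.162 to 0.241 CPM depending on the library, so a low level of this gene was not detectable at this depth.

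**Figure D1:**
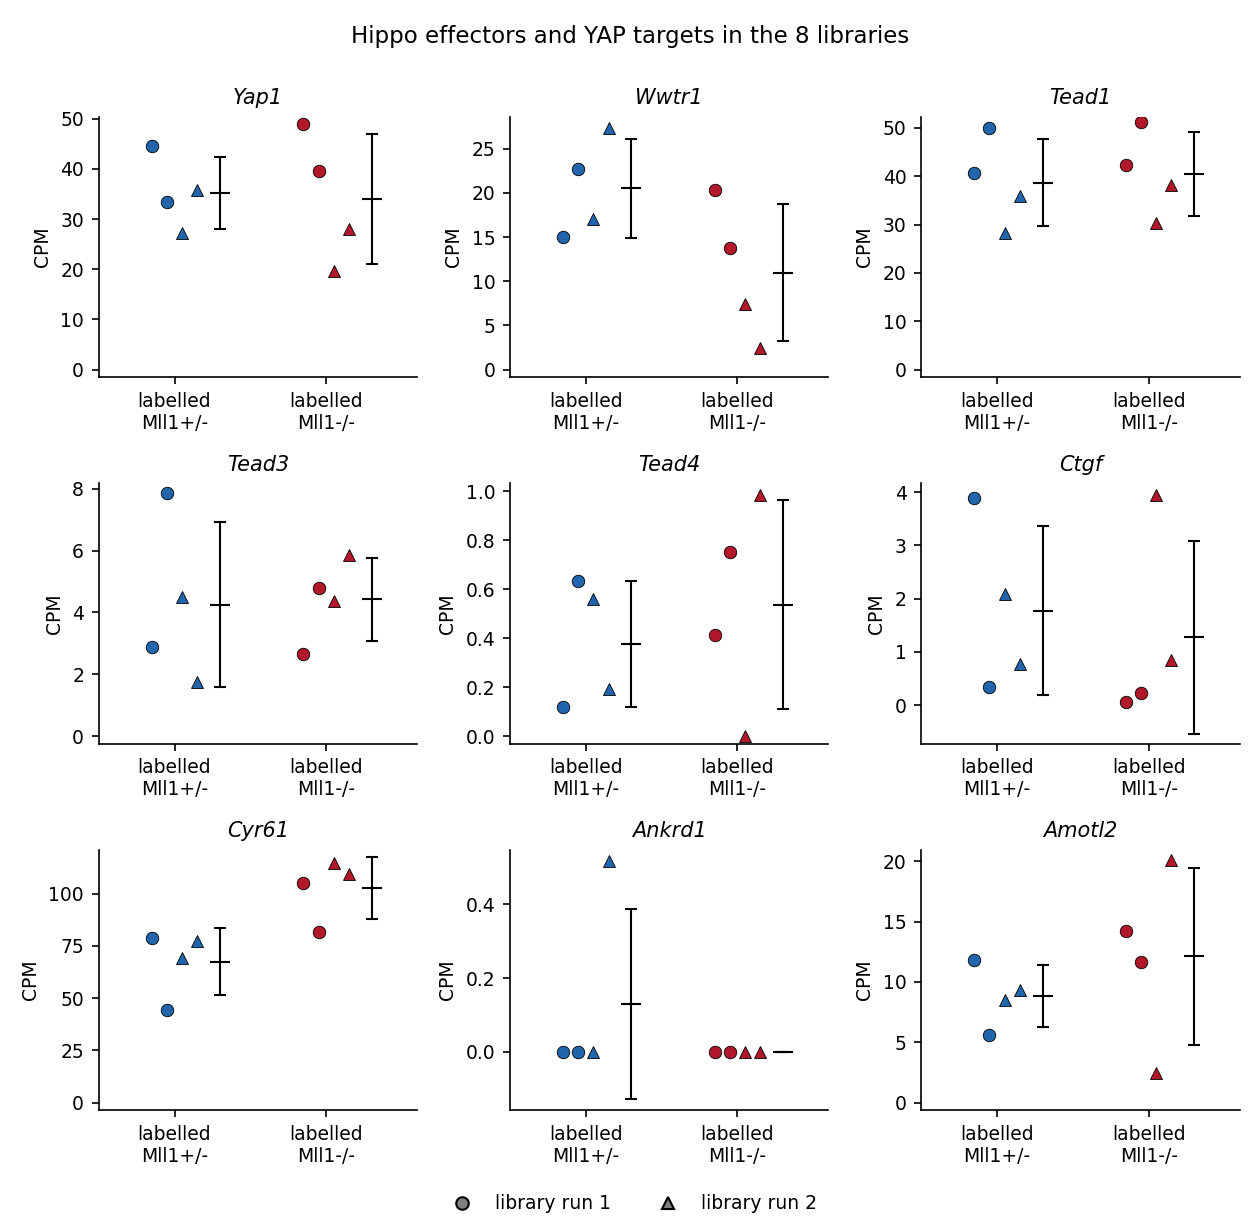
CPM (vertical axis, scaled per gene) of the 9 genes in each of the 8 libraries, with labelled Mll1+/- in blue and labelled Mll1-/- in red, circles and triangles for the first and second library run, and a bar for mean ± SD (n = 4). Only for Cyr61 do all 4 libraries labelled Mll1-/- lie above all 4 labelled Mll1+/-; in Wwtr1 the libraries labelled Mll1-/- spread from 2.43 to 20.3 CPM.

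**Figure D2:**
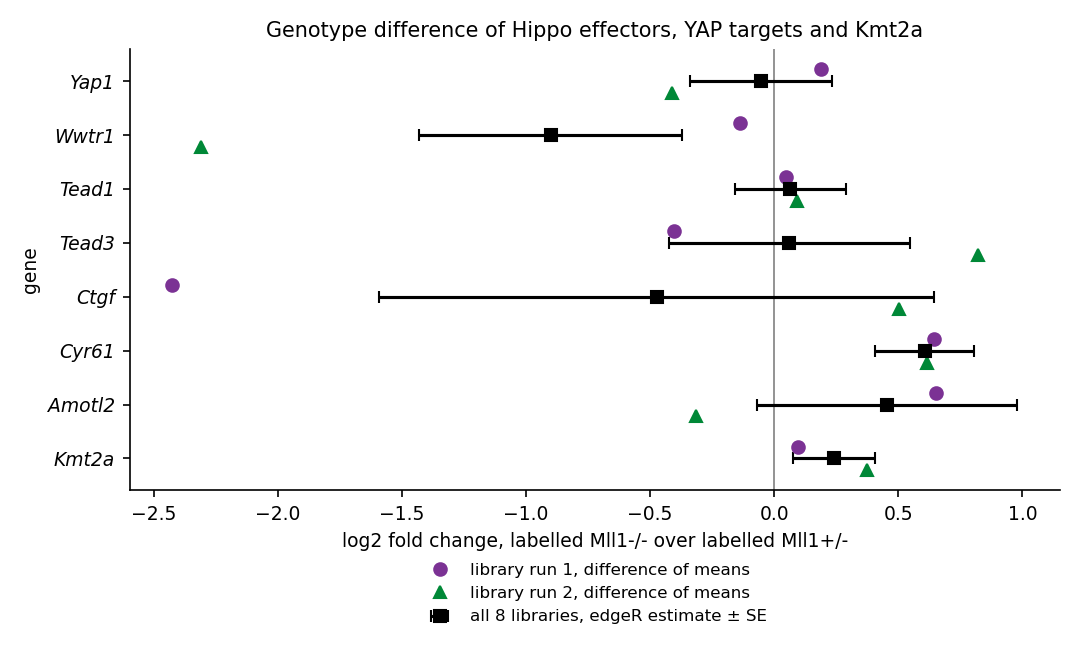
Log2 fold change (horizontal axis) of the 7 members tested and of Kmt2a. Squares give the edgeR estimate ± SE over all 8 libraries and circles and triangles the difference of means within the first and second run. Cyr61 gave 0.64 and 0.62 in the runs, whereas Yap1, Tead3, Ctgf and Amotl2 differed in sign between them.

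Per gene length, Cyr61 was the highest of the 9 at 69.5 TPM on average over the 8 libraries (31.3 to 108 TPM), rank 1447 of the 16445 genes tested. Yap1 followed at 6.07 TPM, Wwtr1 at 5.25, Tead1 at 4.72, Amotl2 at 2.68, Tead3 at 1.56, Ctgf at 0.872, Tead4 at 0.198 and Ankrd1 at 0.058 TPM. Cyr61 exceeded Yap1 in 8 of 8 libraries and their ranges did not overlap, but the ranges of every other pair of neighbours did. Yap1 exceeded Wwtr1 in 5 of 8 libraries and Wwtr1 exceeded Tead1 in 5 of 8, so no order among these 3 can be given. Cyr61 and Ctgf, the 2 secreted targets, took the first and the seventh place.

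**Figure D3:**
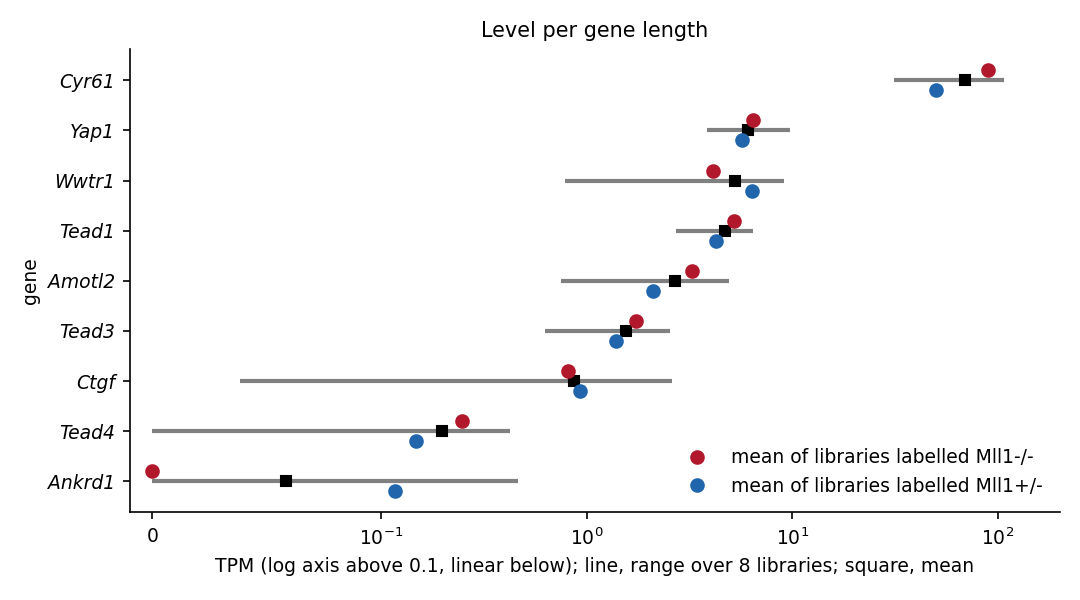
Level per gene length in TPM (horizontal axis, logarithmic above 0.1 and linear below) of the 9 genes, with the range over 8 libraries as a line, the overall mean as a square and the genotype means as coloured points. Cyr61 stands at 69.5 TPM, apart from Yap1, Wwtr1 and Tead1, which overlap between 4.72 and 6.07 TPM on average.

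Correlations of log2 CPM were computed for 9 pairs of targets and coactivators, leaving out Ankrd1, and none passed the Benjamini-Hochberg adjustment. Yap1 and Amotl2 had the highest Pearson's r, 0.64 (exact permutation p = 0.0888, adjusted 0.433; Spearman's rho 0.60, p = 0.132, adjusted 0.397; n = 8). It was -0.072 without J_7075 and J_7135, the libraries farthest from the median of Yap1, so the relation rested on those libraries, and 0.66 after the mean of each labelled genotype was subtracted. Wwtr1 and Cyr61 had the lowest r, -0.59 (exact permutation p = 0.129, adjusted 0.433), and rho was -0.74 (p = 0.0458, adjusted 0.397). It moved to -0.24 without J_7135 and J_7136 and to -0.27 with the genotype means subtracted. Ctgf and Cyr61 gave r = 0.13 (exact permutation p = 0.773, adjusted 0.773) and rho = 0.19 (p = 0.665, adjusted 0.748), and r = 0.22 without J_7075 and J_7135. With the genotype means subtracted this pair gave r = 0.60, and Wwtr1 and Ctgf moved from -0.27 to -0.59; these values were not tested. A run holds 4 libraries, too few for a correlation within it.

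Genes whose log2 CPM followed that of a member most closely over the 8 libraries are given as a description, with no test, since 16444 genes were compared at each. For Yap1 these were Zfp697 (Pearson's r 0.975), Cd274 (0.973) and Mxd1 (0.968), and 56 genes exceeded 0.9. For Cyr61 they were Susd1 (0.970), AC136376.2 (0.963) and Lrrn3 (0.958), among 37 over 0.9. For Ctgf they were 6330549D23Rik (0.985), Ciz1 (0.934) and Jakmip1 (0.926), among 9 over 0.9. None of the 9 named genes is a member of the lists below.

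The upstream kinases and regulators of the pathway showed no common direction. Of 26 listed genes 23 were tested, none passed the FDR threshold with edgeR, DESeq2 or limma-voom, 13 were above 0 and 10 below, and the median log2 fold change was 0.05, between -0.05 without J_7075 and 0.11 without J_7100. At an unadjusted p under 0.05, 1 was higher and 1 lower, where 5.40% of all genes were higher and 3.75% lower. Stk3, which encodes the kinase Mst2, stood at 49.2, 55.3, 31.6 and 31.1 CPM in the libraries labelled Mll1-/- and 33.3, 26.7, 25.7 and 26.9 CPM in those labelled Mll1+/-. Its log2 fold change was 0.57 (SE 0.23, unadjusted p = 0.032, adjusted p = 0.505). Lats1, the kinase that phosphorylates YAP and TAZ, lay the other way, at 56.4, 47.9, 34.5 and 34.2 against 67.8, 73.5, 52.5 and 54.5 CPM. Its log2 fold change was -0.52 (SE 0.21, unadjusted p = 0.033, adjusted p = 0.505). In Stk3 the library of J_7079 exceeded those of J_7135 and J_7136, and in Lats1 that of J_7075 exceeded those of J_7134 and J_7139. Lats1 stood lower in the second run than in the first in both genotypes.

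Among TEAD partners and YAP cofactors, 8 of 13 listed genes were tested and none passed, with 6 above 0, 2 below and a median of 0.16. The median was 0.05 without J_7075 or without J_7139 and 0.26 without J_7079, and the number above 0 was 4 of 8 without J_7075, J_7096, J_7134 or J_7139 and with the Xist covariate. At an unadjusted p under 0.05, 3 were higher and 1 lower, against 5.40% and 3.75% of all genes, and DESeq2 called 1, Runx1, against 2.74% of all genes with an adjusted p. Runx1, a transcription factor that can bind YAP, had the largest difference, at 8.73, 9.73, 16.7 and 12.8 CPM in the libraries labelled Mll1-/- and 15.3, 30.4, 20.7 and 30.8 CPM in those labelled Mll1+/-. Only J_7135 exceeded a library of the other genotype, and the log2 fold change was -1.02 (SE 0.30, unadjusted p = 0.008, adjusted p = 0.371). Wbp2, a cofactor that binds the WW domains of YAP and TAZ, lay at 22.4, 22.0, 38.0 and 18.8 against 15.7, 21.0, 14.4 and 12.3 CPM (log2 fold change 0.67, SE 0.27, adjusted p = 0.514). Here J_7100 exceeded J_7136, and the other libraries kept apart.

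Of 25 further YAP and TAZ target genes 17 were tested. None passed the FDR threshold, but 14 (82.4%) lay above 0 and 3 below, where 50.8% of all genes lay above 0, and the median log2 fold change was 0.55. At an unadjusted p under 0.05, 2 were higher and none lower, where 5.40% and 3.75% of all genes were, and DESeq2 called 1, Thbs1, against 2.74% of all genes. Of the 25, 4 (Lats2, Ptpn14, Ajuba and Amotl1) are also on the list of regulators. Thbs1, which encodes the matricellular protein thrombospondin-1, had the lowest p among them. It stood at 119, 81.4, 70.7 and 67.6 CPM in the libraries labelled Mll1-/- and at 26.9, 32.7, 22.1 and 50.3 CPM in those labelled Mll1+/-, with no overlap. Its log2 fold change was 1.36 (SE 0.29, unadjusted p = 0.00089, adjusted p = 0.200), at 1.73 and 1.05 within the runs. Rbms3, an RNA-binding protein, lay at 32.7, 30.5, 16.9 and 29.4 against 19.2, 18.5, 20.2 and 14.5 CPM, where only J_7135 overlapped (log2 fold change 0.60, SE 0.24, adjusted p = 0.506). Summed over the list, the level was 397 to 494 CPM in the libraries labelled Mll1-/- and 316 to 375 CPM in those labelled Mll1+/-, of which Birc5, a gene of dividing cells, made up 167 to 213 and 92.7 to 190 CPM. The other 24 genes summed to 230 to 320 and 156 to 223 CPM, also without overlap. Thbs1, the only gene tested of the list without overlap, is among these 24, at 67.6 to 119 and 22.1 to 50.3 CPM. The sum without Thbs1, and how often such sums separate over all genes, were not computed. The separation of the sums therefore cannot be read as a trait of the whole list. Without J_7136 the median log2 fold change was 0.35.

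Among genes linked to YAP in the regenerating intestine, 10 of 12 were tested and none passed, with 9 above 0 and 1 below. The median was 0.66, but 0.42 without J_7139 and 0.31 with limma-voom, where 7 lay above 0. Just 3 of the 10 had at least 10 counts in every library, with a median of 0.33. The mean log2 CPM of the 10 was 0.39 to 3.28 in the libraries labelled Mll1-/-. In those labelled Mll1+/- it was 0.94 to 2.77, so the genotypes overlapped. Only Krt7 had an unadjusted p under 0.05, and DESeq2 called it, with the same shares over all genes as above. Krt7, a keratin, stood at 103, 89.3, 159 and 164 CPM in the libraries labelled Mll1-/- and 77.2, 75.1, 62.4 and 83.4 CPM in those labelled Mll1+/-, with no overlap. Its log2 fold change was 0.79 (SE 0.21, unadjusted p = 0.005, adjusted p = 0.320). Clu, which marks revival stem cells, gave 0.34 (SE 0.42, adjusted p = 0.856), and Ly6a, a marker of the fetal-like state, 1.09 (SE 1.27, adjusted p = 0.848). Both differed in sign between the runs, Clu at -0.25 and 0.92 and Ly6a at 2.15 and -1.52, and Ly6a was at 0 CPM in J_7135. Ereg, the 1 gene below 0, gave -1.37 (SE 1.04, adjusted p = 0.740). Clu, Ly6a and Ereg are named here after their values were seen.

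Cyr61 is also an immediate early gene, induced within minutes by serum or by dissociation of tissue, so genes of that response were set beside it. All 20 listed were tested and none passed, with 16 above 0, 4 below and a median of 0.32, where 50.8% of all genes lay above 0. At an unadjusted p under 0.05, 6 were higher and none lower, against 5.40% and 3.75% of all genes, and DESeq2 called 3, against 2.74%. Nr4a1 stood at 41.3, 22.5, 71.6 and 54.8 CPM in the libraries labelled Mll1-/- and at 23.1, 19.5, 20.6 and 29.1 CPM in those labelled Mll1+/- (log2 fold change 1.04, SE 0.32, adjusted p = 0.403). Atf3 stood at 271, 155, 140 and 298 against 130, 111, 85.3 and 140 CPM (log2 fold change 0.89, SE 0.27, adjusted p = 0.384). J_7096 in Nr4a1 and J_7135 in Atf3 reached into the other genotype. Of the 20 genes 2 others had no overlap, both higher in the libraries labelled Mll1-/-, where 3.34% of all genes were. The list summed to 1531 to 2285 CPM in the libraries labelled Mll1-/- and to 1206 to 1706 CPM in those labelled Mll1+/-. Its part in the difference of Cyr61 was not tested.

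Cyr61, Ctgf and Thbs1 are also strongly expressed by fibroblasts, so stromal markers were set beside them. Of 16 markers 2 could be tested, and both lay above 0, with a median log2 fold change of 2.86. The summed level of the 16 was 51.3 to 120 CPM in the libraries labelled Mll1-/- and 5.49 to 7.73 CPM in those labelled Mll1+/-. Nearly all of it was Vim, at 44.3 to 116 and 0.194 to 4.89 CPM (log2 fold change 4.48, SE 0.70, adjusted p = 0.108), a gene chosen for naming after its values were seen. The other 15 summed to 4.29 to 7.03 and 2.25 to 5.29 CPM. Among them Col1a1, Col3a1 and Pdgfra stood at no more than 0.854, 0.802 and 0.118 CPM in any library. These genes were picked outside the naming rule and do not stand for all 15. The second marker tested is also among the 15 and lay above 0, without an unadjusted p under 0.05. Endothelial markers summed to 18.4 to 26.4 and 18.8 to 26.6 CPM, and immune markers to 3.14 to 12.3 and 9.62 to 16.5 CPM. Epithelial and stem cell markers had a median log2 fold change of 0.03, with 8 of 14 above 0, but were not alike in the 2 genotypes. They summed to 12545 to 19730.5 CPM in the libraries labelled Mll1-/- and 22986 to 26904 CPM in those labelled Mll1+/-. Most of it was Olfm4, at 8080 to 14429 and 19281 to 22949 CPM. The other 13 lay the other way, at 4442 to 5301 and 3705 to 4107 CPM. Goblet markers had a median log2 fold change of 1.33, with 8 of 10 above 0, and Paneth markers one of -0.87, with 6 of 8 below 0. The share of counts on mitochondrial genes was 17.1 to 27.1% and 23.3 to 30.1%. The part of these in the values of the target lists was not tested.

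**Figure D4:**
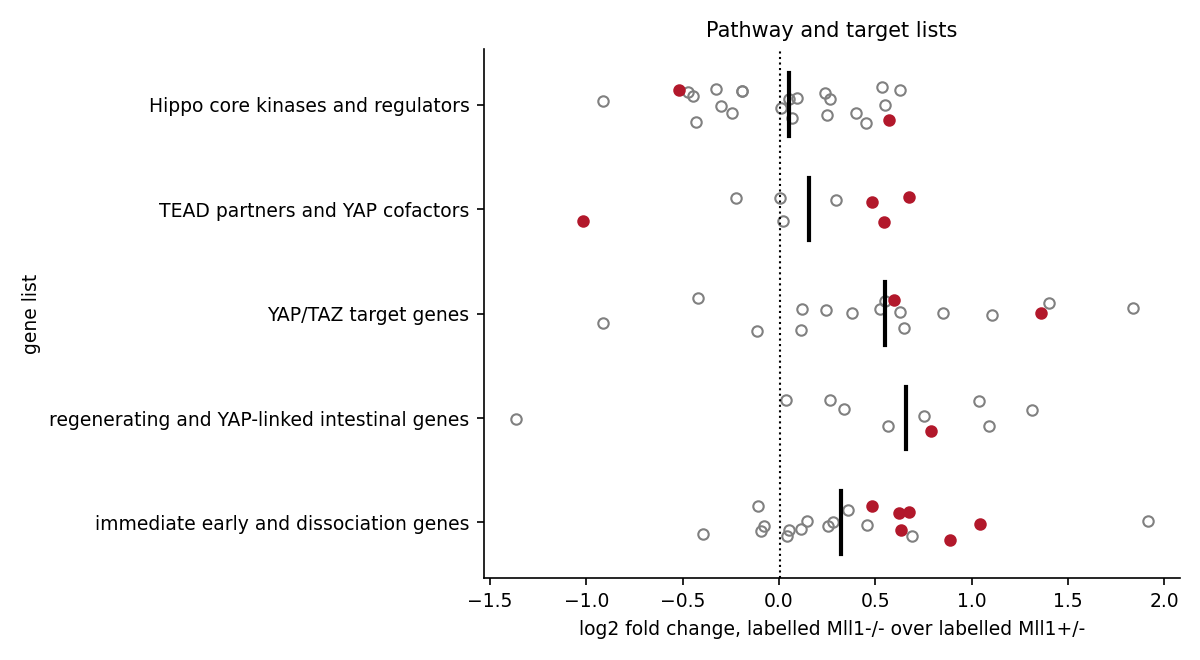
Log2 fold change (horizontal axis) of each gene tested in 5 lists, with filled points for an unadjusted p under 0.05, a black bar for the median of the list and a dotted line for the median of all genes. Regulators centre at 0.05, while the target, regeneration and immediate early lists have medians of 0.55, 0.66 and 0.32, and no point passes the FDR threshold. Of the 10 regeneration genes, 3 had at least 10 counts in every library.

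**Figure D5:**
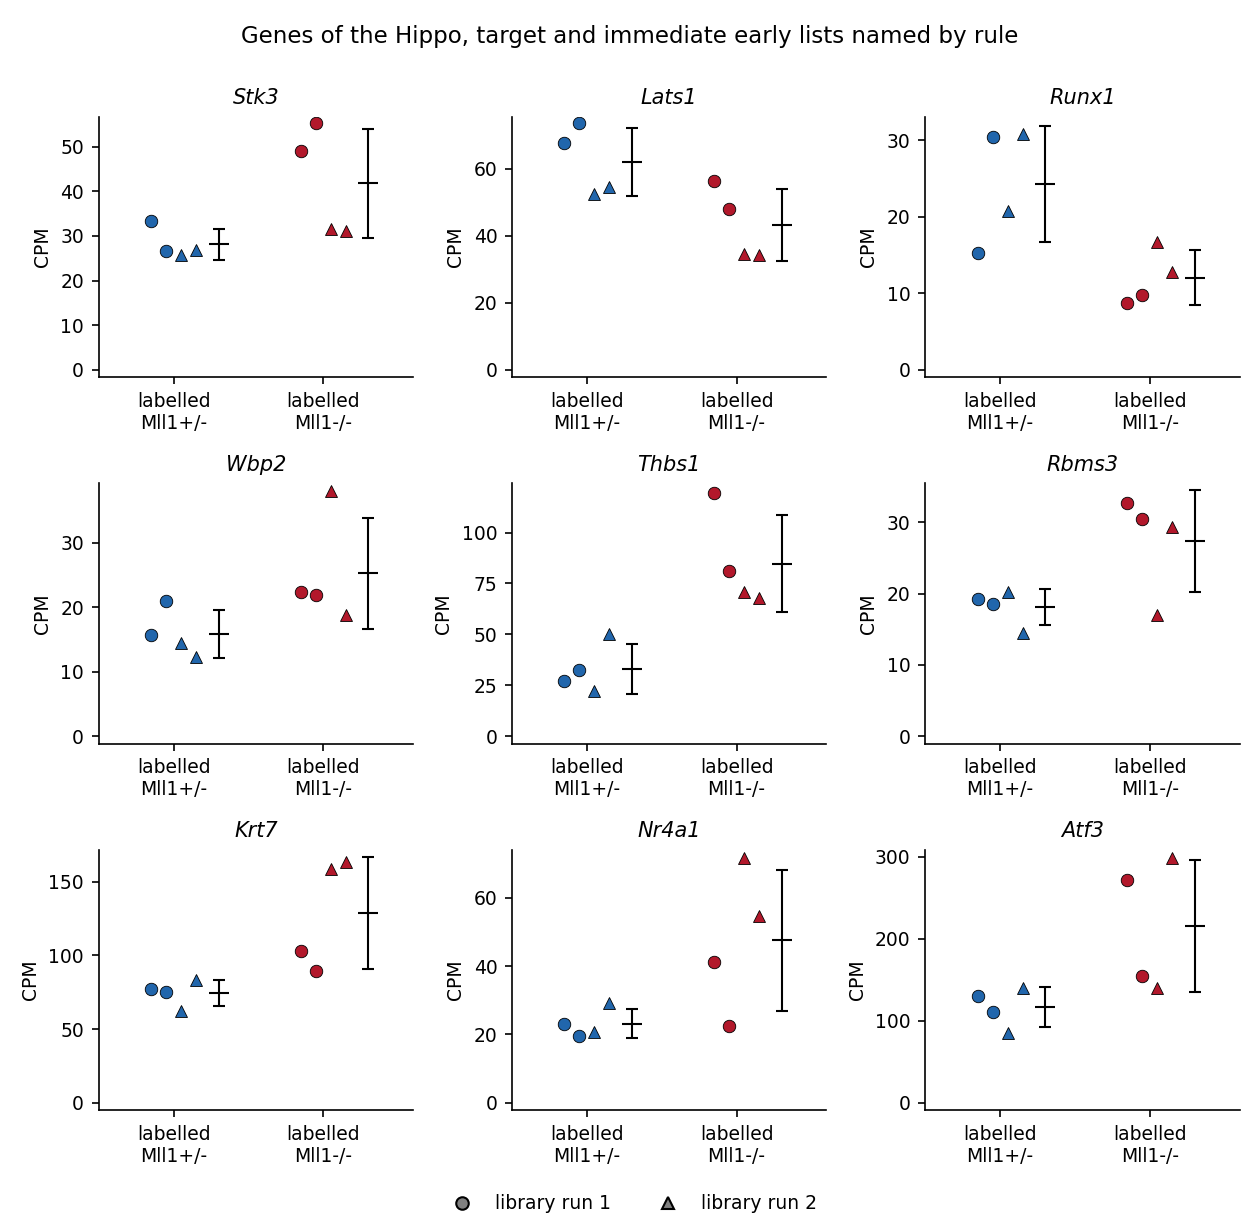
CPM (vertical axis, scaled per gene) of the 9 genes that the naming rule drew from the lists, in each of the 8 libraries, with colours, symbols and bars (mean ± SD, n = 4) as in the plot of the members. Thbs1 and Krt7 have no overlap between the labelled genotypes.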

How the data were processed

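The authors aligned the reads with GSNAP to mm10 and counted them with featureCounts 1.6.3 on Ensembl release 92 without regard to strand. They deposited raw counts per gene and library, together with the merged exon length of each gene as another column. The deposited normalised table holds a signal, the counts of a library divided by 1 DESeq2 (1.22.2) size factor (0.811 to 1.17); it keeps genes with at least 11 counts in total, so Ankrd1 is not in it, and it served only to find the members.

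Counts on 53801 genes (92 spike-ins left out) were tested with edgeR 4.0.16 in R 4.3.3 (TMM scaling, filterByExpr with a minimum count of 10, robust quasi-likelihood test, Benjamini-Hochberg adjustment over 16445 genes, FDR 0.1), all 8 libraries and no covariate. CPM use TMM library sizes, log2 values add a prior count of 2, and TPM use the deposited lengths. The median SE of a log2 fold change was 0.33. On simulated data for this comparison (15861 genes, 200 changed) the test recovered 23% of genes changed by 1 and 83% of those changed by 2 on the log2 scale, and 6.19% of its 113 calls were false. The changed genes were drawn from well counted genes only, so the recovery does not extend to members with few counts such as Ctgf. No run effect and no outlying library was simulated.

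The gene lists and members were chosen with earlier results of these data known. Named from each list were the genes past the FDR threshold and the 2 with the largest absolute log2 fold change at an unadjusted p under 0.05, from the likeness search 3 genes each for Yap1, Ctgf and Cyr61, plus all members and Kmt2a. A planned set of 14 correlations came down to 9 because Ankrd1 was at 0 in 7 libraries. Areg and Tp73 were listed but not matched by symbol and are not analysed here. Limits given for counts of 0 cover counting error only, whereas SD and SE include the spread between mice. Nothing in the labels groups the libraries beyond mouse and genotype. Alternatives were DESeq2 1.42.0 (its test and its size factors), limma-voom 3.58.1, upper-quartile scaling, other filters, each library left out, the library run as a block and a covariate of Xist minus Y-linked expression. Gene spans are those of the deposited count table (GRCm38), and exons at the motifs were read from GENCODE M21.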

Additional observations from a re-analysis of the deposited data

Results flagged for a closer look

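Ankrd1 was listed at 0.517 CPM in mouse J_7139, labelled Mll1+/-, and at 0 in the other 3 libraries of that genotype, so this library stood farther from the rest than Dixon's 95% critical value for 4 samples allows. The value rests on 8 counts. With the other 3 libraries at 0, any read in 1 library would be marked, so the mark is not a test of this value. Of 17 groups of 4 libraries tested over the 9 members, this was the 1 so marked. Chance marks about 1 in 20, a rate that does not hold for a group with ties at 0.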

How the results depend on the processing

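No member passed the FDR threshold in any of the 16 alternative fits. Over all genes the count of 14 became 8 with upper-quartile scaling, 406 with DESeq2, 47 with no filter on low counts, 34 with at least 10 counts in every library and 0 with limma-voom, with the library run as a block and with the Xist covariate; it ran from 0 to 45 with 1 library left out, the highest without J_7135. On simulated data, which held no run effect and no outlying library, 36.9% of the 222 DESeq2 calls were false. That share need not hold for the calls in these data. Cyr61, Wwtr1 and Amotl2 kept their sign in all fits. With 1 library left out, log2 fold changes that changed sign ran from -0.29 to 0.14 for Yap1, -0.067 to 0.21 for Tead1, -0.20 to 0.54 for Tead3 and -2.22 to 0.26 for Ctgf. Among these Yap1 was 0.079, 0.14 and 0.031 without J_7079, J_7135 and J_7136, Tead1 -0.067 and -0.059 without J_7096 and J_7134, and Tead3 -0.090, -0.10 and -0.20 without J_7079, J_7136 and J_7139. With the run as a block Wwtr1 was -1.14 and Ctgf -1.31, and with the Xist covariate Wwtr1 was -1.52, none past the threshold. Ctgf gave no value with at least 10 counts in every library. Members without overlap between genotypes numbered 1 to 2 with a library left out, where the share over all genes was not computed. DESeq2 called 1 TEAD partner (Runx1), 1 target (Thbs1), 1 regeneration gene (Krt7) and 3 immediate early genes (Atf3, Nr4a1 and Dusp1), and the fit without a filter called 1 target, Thbs1. The median of the targets ran from 0.35 to 0.66 with 1 library left out. Ordered by CPM without length, Tead1 took place 2, Yap1 3 and Wwtr1 4. Without the 2 farthest libraries r turned to 0.18 for Ctgf and Amotl2, 0.064 for Yap1 and Ctgf and -0.072 for Yap1 and Amotl2. The cause of these shifts was not tested. No paired analysis was made because nothing in the labels pairs a mouse of 1 genotype with a mouse of the other. With 4 mice a genotype, amplified pools of few cells and a common biological coefficient of variation of 0.435, the spread between mice limits the well counted members, low counts limit Ctgf, Tead4 and Ankrd1, and the libraries hold no record of protein location.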
